A study of Mus musculus with 10 samples.

Results

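The oxygen carrier of red blood cells was followed in whole lungs through 6 genes, Hba-a1, Hba-a2, Hbb-bs, Hbb-bt, Alas2 and Slc4a1. They were taken by gene name from the 54532 genes of the deposited expression table, and all 6 had 1 row each and passed the filter on low values together with 15388 genes in all. The lungs came from wild-type C57/BL6 pups, male or female, at postnatal day 14 (P14). In the 5 lungs of the IncPBF group (increased pulmonary blood flow), a fistula between the abdominal aorta and the inferior vena cava had been made with a needle at P7. The 5 lungs of the sham group had the same laparotomy at P7 without the puncture. The question was how the erythroid RNA carried by these lungs differed between the groups, and how far it differed from lung to lung. The labels number the samples without naming animals or litters, so the p-values measure the spread between these 10 samples.

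Adult hemoglobin is a tetramer of a pair of alpha chains and a pair of beta chains, each holding a heme with an iron atom. Hba-a1 and Hba-a2 encode alpha chains, and Hbb-bs and Hbb-bt are the adult beta globin genes of the C57BL/6 haplotype. Alas2 is the erythroid form of 5-aminolevulinate synthase, the first enzyme of heme synthesis, and Slc4a1 is band 3, the anion exchanger that anchors the red cell membrane to its skeleton. Mature mouse red cells have no nucleus and make no new RNA, whereas reticulocytes, the youngest red cells in blood, still hold globin RNA. The source of the globin RNA in these lungs was not measured, and in bulk RNA fewer erythroid cells cannot be told apart from less RNA per cell. The methods name P14 lungs taken for staining and for sequencing and then state that lungs were rinsed of blood with buffered saline before fixation, while the labels describe freezing.

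The alpha genes lie on chromosome 11 of GRCm38, Hba-a1 at chr11:32283511-32284465 and Hba-a2 at chr11:32296489-32297298, both on the plus strand. The beta genes lie on the minus strand of chromosome 7, Hbb-bs at chr7:103826534-103828096 and Hbb-bt at chr7:103812524-103813996. Alas2 is at chrX:150547375-150570638 on the plus strand, and Slc4a1 at chr11:102348824-102366203 on the minus strand. These positions are those of the table, and all 6 were identical in GENCODE M21. The copies of each chain are nearly the same sequence. The 426 coding bases of Hba-a1 and Hba-a2 differed at 1 position, and so did the 441 coding bases of Hbb-bs and Hbb-bt. The stretches below, read from GENCODE M21 transcripts on the minus strand, are shown because they hold the 1 differing coding base of the beta pair, in capitals, at the end of coding bases 358 to 417 in exon 3 (chr7:103826692-103826751 and chr7:103812683-103812742). How the authors' counting divided fragments between such copies is not given in the sources used here, so the values of the single copies are uncertain and the sums of each pair were described as well.
Hbb-bs: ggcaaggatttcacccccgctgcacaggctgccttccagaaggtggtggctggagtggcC
Hbb-bt: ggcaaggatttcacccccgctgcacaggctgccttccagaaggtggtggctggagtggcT

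Promoter sequence was at hand for 5 of the 6 genes, from RefSeq on GRCm38.p6, and not for Slc4a1. The 120 bases before the RefSeq start are shown for 1 alpha gene, both beta genes and Alas2, since these genes varied together between lungs (described below). Capitals mark 4 short motifs on either strand: the CCAAT box, the CACCC box, a TATA box with the letters ATATAA, and the GATA factor core with the letters GATAA. No match overlapped another here. The windows are chr11:32296372-32296491 (plus strand), chr7:103827929-103828048 (minus), chr7:103813924-103814043 (minus) and chrX:150547297-150547416 (plus). The RefSeq starts of these genes lie inside the gene intervals given above, so each window overlaps its gene's interval. The Hbb-bs window lies wholly within it. The 300-base windows of Hba-a1 and Hba-a2 shared an identical run of 297 bases.
Hba-a2: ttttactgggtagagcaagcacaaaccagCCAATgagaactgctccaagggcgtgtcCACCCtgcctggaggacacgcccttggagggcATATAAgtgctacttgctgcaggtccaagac
Hbb-bs: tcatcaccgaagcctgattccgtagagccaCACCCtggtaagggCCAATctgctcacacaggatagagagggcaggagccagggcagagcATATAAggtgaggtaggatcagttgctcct
Hbb-bt: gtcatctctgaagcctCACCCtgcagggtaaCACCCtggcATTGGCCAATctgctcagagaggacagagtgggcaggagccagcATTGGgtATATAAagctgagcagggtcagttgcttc
Alas2: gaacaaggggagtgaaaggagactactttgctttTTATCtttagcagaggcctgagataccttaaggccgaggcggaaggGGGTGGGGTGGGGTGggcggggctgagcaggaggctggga

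The 3 globin windows each held a CCAAT box, a CACCC box and a TATA box, and the Alas2 window held the CACCC box 3 times and the GATA core 1 time, all on the other strand. Of 32851 windows of this length, 21.3% held the CCAAT box, 31.7% the CACCC box, 4.47% the TATA box and 10.5% the GATA core. These matches describe the letters only.

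Hemoglobin and erythroid transcripts were lower on average in the IncPBF lungs for all 6 genes. In limma on log2(FPKM + 0.1), with Benjamini-Hochberg adjustment over all 15388 genes, 4 of 6 passed an adjusted p of 0.05 as lower (Hba-a1, Hbb-bt, Alas2 and Slc4a1), 0 passed as higher, and 5 had an unadjusted p under 0.05, all of them lower. In limma-voom on the recovered fragments, added after seeing the data, 5 passed as lower and 0 as higher, while 5150 of all genes tested passed. How many of all genes had an unadjusted p under 0.05 was not counted. The same holds for the other counts at an unadjusted p given below. Across all genes tested, 32.3% passed in limma on log2(FPKM + 0.1), 16.2% lower and 16.1% higher in IncPBF. The median log2 fold change was -1.50 over the 6 genes and 0.01 over all genes tested. The values are FPKM, fragments per kilobase of gene length scaled to library size, so they can be set side by side between genes. Mean FPKM over the 10 lungs ran from Hbb-bs at 762 and Hba-a1 at 556 through Hbb-bt at 74.1, Hba-a2 at 39.5 and Alas2 at 14.8 to Slc4a1 at 2.97. This order held in every lung but sham lung 1, where Alas2 stood above Hba-a2.

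Hba-a1, the alpha gene with the higher deposited values, measured 137, 670, 239, 97.4 and 522 FPKM in IncPBF lungs 1 to 5. It measured 605, 844, 890, 886 and 670 FPKM in sham lungs 1 to 5. IncPBF lungs 1, 3 and 4 lay far under every sham lung, lung 5 lay under the lowest as well, and lung 2 lay inside the sham range. The mean was 333 ± 251 FPKM (SD, n = 5) against 779 ± 132, and Hba-a1 fell by 1.58 on the log2 scale (SE 0.47), with an adjusted p of 0.0237 in limma and an exact permutation p of 0.0159. Hba-a1 no longer passed without IncPBF lung 1 (limma, adjusted p = 0.0555).

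Hba-a2, the second alpha gene, measured 7.83, 46.4, 19.2, 11.4 and 29.7 FPKM in the IncPBF lungs, in the same order. In the sham lungs it measured 11.9, 56.0, 116, 56.8 and 40.2 FPKM. The groups overlapped widely, because sham lung 1 stood at the IncPBF level while sham lung 3 stood above all others. The mean was 22.9 ± 15.6 FPKM against 56.2 ± 38.1, and the log2 fold change of -1.24 (SE 0.60) did not pass (limma, adjusted p = 0.136; exact permutation p = 0.103). Without sham lung 1 it was -1.72 with an adjusted p of 0.0277 in limma.

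Hbb-bs, the gene of the 6 with the highest deposited mean, measured 176, 1089, 285, 128 and 786 FPKM in the IncPBF lungs. The sham lungs measured 751, 1168, 1289, 1250 and 703 FPKM. IncPBF lungs 1, 3 and 4 again lay below every sham lung, and lungs 2 and 5 lay within the sham range. The mean was 493 ± 424 FPKM against 1032 ± 282, with a log2 fold change of -1.50 (SE 0.54) that did not pass (limma, adjusted p = 0.0517; exact permutation p = 0.0556). Without IncPBF lung 2 or without IncPBF lung 5 it passed, at -1.91 and -1.79 with adjusted p of 0.0126 and 0.0294 in limma.

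Hbb-bt, the second beta gene, measured 19.9, 104, 27.8, 11.8 and 74.5 FPKM in the IncPBF lungs and 73.9, 111, 123, 118 and 76.9 FPKM in the sham lungs. The split of the IncPBF lungs was that of Hbb-bs. Hbb-bt fell by 1.50 on the log2 scale (SE 0.51; limma, adjusted p = 0.0449; exact permutation p = 0.0397), close to the threshold. It kept its call only without IncPBF lung 2 or IncPBF lung 5, and missed it without any 1 of the other 8 lungs (limma, adjusted p from 0.0600 to 0.0983).

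Alas2 measured 3.72, 17.5, 5.74, 2.51 and 12.1 FPKM in the IncPBF lungs and 16.0, 24.2, 24.7, 23.2 and 18.2 FPKM in the sham lungs. Of the IncPBF lungs, 4 lay below the lowest sham lung and lung 2 lay just above it. Alas2 fell by 1.67 on the log2 scale (SE 0.45; limma, adjusted p = 0.0151; exact permutation p = 0.0159), the largest difference of the 6. It passed without any single lung, with adjusted p up to 0.0371 in limma.

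Slc4a1 measured 1.63, 2.21, 1.64, 1.36 and 2.36 FPKM in the IncPBF lungs and 5.32, 4.07, 4.84, 2.50 and 3.71 FPKM in the sham lungs. It was the 1 gene of the 6 whose groups did not overlap, and of all genes tested 11.2% were lower in IncPBF without overlap. The mean was 1.84 ± 0.426 FPKM (SD, n = 5) against 4.09 ± 1.09, resting on 115 to 240 fragments per IncPBF lung and 234 to 467 per sham lung. Slc4a1 fell by 1.09 on the log2 scale (SE 0.20; limma, adjusted p = 0.00227), and its exact permutation p of 0.00794 was the smallest that 5 lungs against 5 can give. It passed without any single lung, with adjusted p up to 0.00715 in limma.

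**Figure D1:**
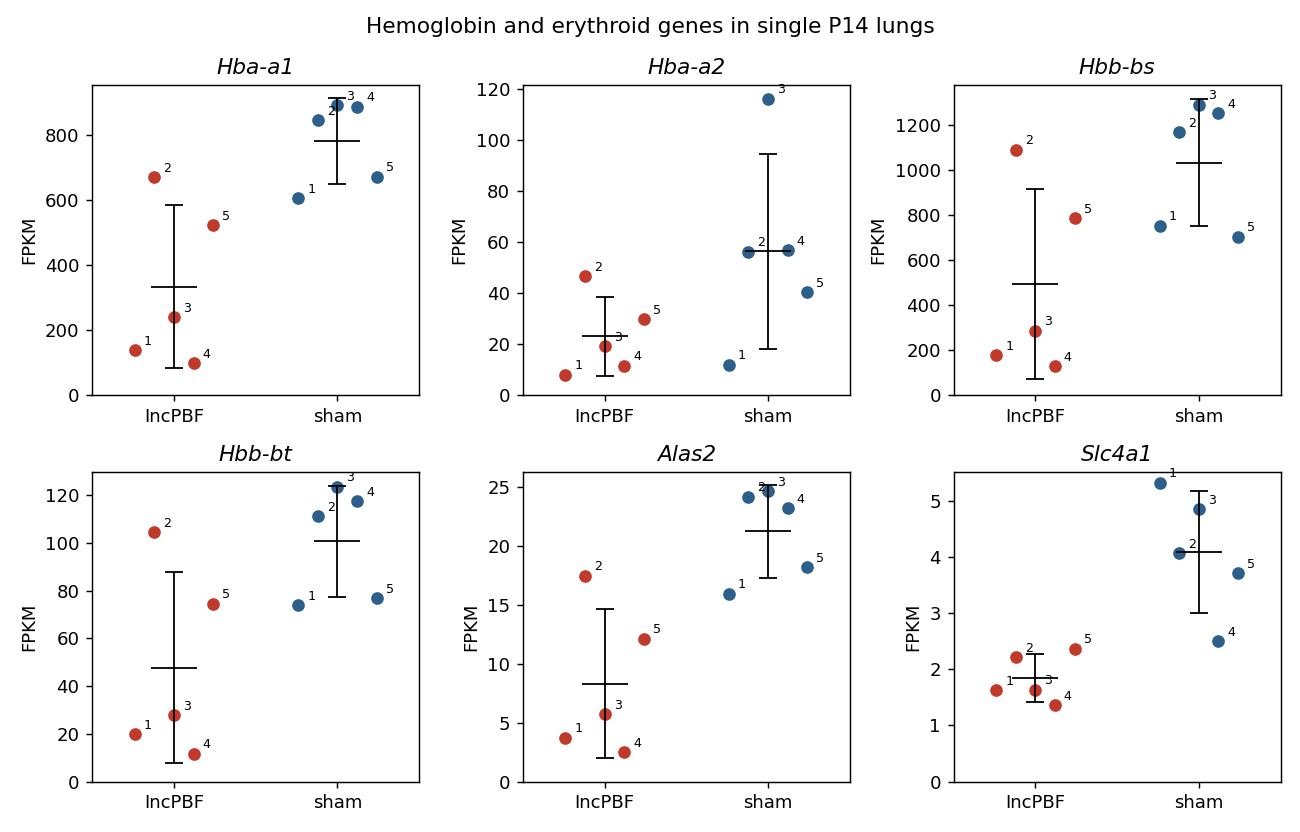
FPKM of the 6 genes (y axes, each from 0) in the IncPBF lungs (red) and the sham lungs (blue), with the lung number beside each point, and the mean and SD of each group in black. IncPBF lungs 1, 3 and 4 sit low in all 6 panels, lungs 2 and 5 reach the sham lungs or nearly so in the globins, and for Slc4a1 every IncPBF lung is below the sham minimum of 2.50 FPKM.

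The spread between single lungs was itself unlike in the groups. The highest IncPBF lung held 6.88 times the Hba-a1 FPKM of the lowest, 8.52 times for Hbb-bs, 8.85 times for Hbb-bt and 6.97 times for Alas2. In the sham lungs these ratios were 1.47, 1.83, 1.67 and 1.55. On the log2 scale the SD of Hba-a1 was 1.20 in the IncPBF lungs and 0.26 in the sham lungs, and that of Alas2 was 1.14 and 0.28. Slc4a1 did not show this, with an SD of 0.32 in IncPBF and 0.41 in sham, and neither did Hba-a2, with 1.03 and 1.20. The difference in spread was not tested.

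Set against the sham mean, the same IncPBF lungs were low in 5 of the genes. Lung 4 held 12.5% of the sham mean for Hba-a1, 12.4% for Hbb-bs and 11.8% for Alas2. Lung 1 held 17.6%, 17.0% and 17.5% of it for these genes, and lung 3 held 30.7%, 27.6% and 27.0%. Lung 5 held 67.0%, 76.2% and 57.1%, and lung 2 held 86.0%, 105.5% and 82.3%. Slc4a1 followed the same direction over a narrower range, from 33.3% in lung 4 to 57.8% in lung 5.

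**Figure D2:**
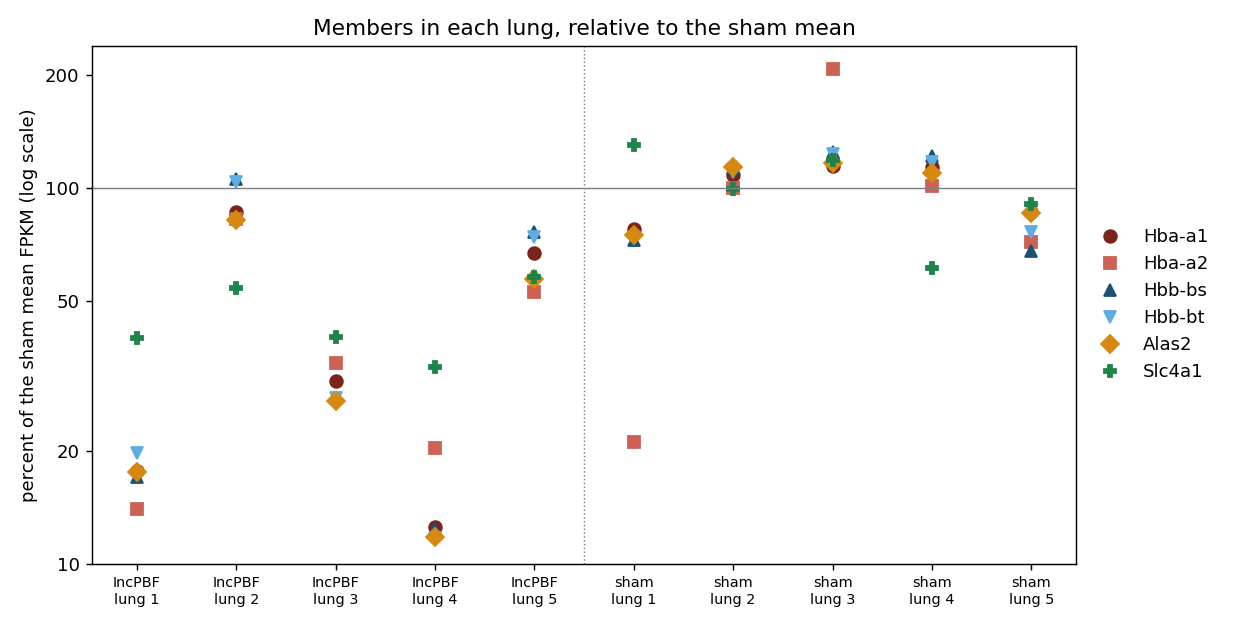
FPKM of the 6 genes in each of the 10 lungs, as a percent of that gene's sham mean (y axis, log scale; the grey line marks 100). In IncPBF lungs 1, 3 and 4 the globins and Alas2 lie below 40%, in lungs 2 and 5 they lie above 50%, and Slc4a1 (green) lies between 33.3% and 57.8% in all 5 IncPBF lungs.

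Summed over the copies, alpha globin measured 145, 716, 258, 109 and 552 FPKM in the IncPBF lungs and 617, 900, 1006, 942 and 710 FPKM in the sham lungs. The mean was 356 ± 266 (SD, n = 5) against 835 ± 164, a difference of -1.57 on the log2 scale (exact permutation p = 0.0238). Beta globin measured 196, 1193, 312, 140 and 861 FPKM in IncPBF and 825, 1279, 1412, 1368 and 780 FPKM in sham. The mean was 540 ± 464 against 1133 ± 306, a difference of -1.50 (exact permutation p = 0.0556). Over the 8 comparisons made on sums, ratios and shares, Benjamini-Hochberg adjustment brought the exact permutation p to 0.148 for both sums.

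The proportion of the chains varied less between lungs than their amounts. Alpha divided by beta was 0.717 ± 0.0944 in the IncPBF lungs (0.600 to 0.826; SD, n = 5) and 0.753 ± 0.0913 in the sham lungs (0.689 to 0.911), with no difference passing the test (exact permutation p = 0.556). Hbb-bt made up 8.44% to 10.1% of beta globin in IncPBF and 8.59% to 9.86% in sham. Hba-a2 made up 5.39% to 10.5% of alpha globin in IncPBF and 1.92% to 11.5% in sham, a wider range between lungs. How fragments were divided between the near-identical copies is not given, so these shares describe the deposited values only. The FPKM of Alas2 came to 1.41% to 1.90% of that of beta globin in IncPBF and to 1.70% to 2.34% in sham (exact permutation p = 0.198). The FPKM of Slc4a1 came to 0.186% to 0.976% of that of beta globin in IncPBF and to 0.183% to 0.644% in sham (exact permutation p = 0.524), highest in IncPBF lung 4, where beta globin was lowest.

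**Figure D3:**
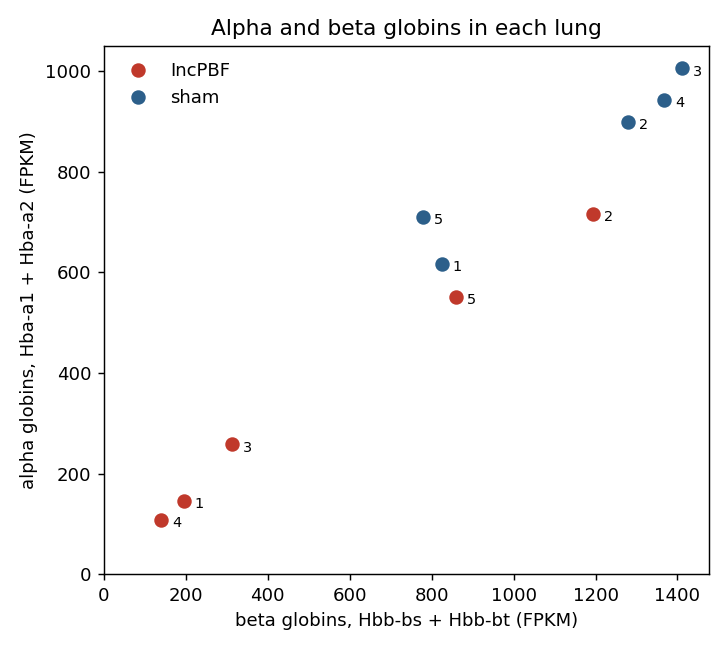
Alpha globin (Hba-a1 + Hba-a2, y axis) against beta globin (Hbb-bs + Hbb-bt, x axis) in FPKM, both axes from 0, 1 point per lung with its number, IncPBF in red and sham in blue. IncPBF lungs 1, 3 and 4 sit near the origin with alpha globin of 109 to 258 FPKM, and IncPBF lungs 2 and 5, at 716 and 552, sit beside the sham lungs, which run from 617 to 1006.

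The 4 globins together took few of the fragments in any lung. Fragments on genes numbered 16103423 to 20318525 per IncPBF lung and 18171494 to 19400575 per sham lung. Of these, globins took 0.0207% in IncPBF lung 4 (95% Wilson interval 0.0200% to 0.0214%, counting error only) and 0.155% in IncPBF lung 2, and 0.111% to 0.194% in the sham lungs. Counting error was therefore small beside the spread between lungs for the globins. Rescaling every lung to an equal total without the globins, which was not planned beforehand, left the same 4 genes past the threshold. Of these, Hbb-bt was close to it (limma, adjusted p = 0.0487).

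Xist, the RNA that coats the inactive X chromosome of female cells, differed between the groups. Its level was 58.6, 66.5, 62.3 and 52.4 FPKM in IncPBF lungs 2 to 5, while IncPBF lung 1 had 0.0144 FPKM and no sham lung exceeded 0.0770 FPKM. Ddx3y, a gene of the Y chromosome, showed the reverse, with 18.6 FPKM in IncPBF lung 1, 21.8 to 24.6 FPKM across the sham group and 0.00926 FPKM or less for IncPBF lungs 2 to 5. By these genes 4 of the 5 IncPBF lungs were female, and IncPBF lung 1 and all 5 sham lungs were male, so sex and surgery cannot be told apart for those 4 lungs. All 6 genes were below every sham lung in IncPBF lung 1, the 1 IncPBF lung with the Xist and Ddx3y levels of the sham lungs, and a comparison of groups within that level would rest on this 1 lung. With log2 Xist in the limma fit the fold changes ran from -1.22 for Slc4a1 to -2.54 for Hba-a2, and 0 of 6 passed (adjusted p from 0.0870 to 0.172), while all 6 had an unadjusted p under 0.05. With that term 741 genes passed in all, against 4970 without it, and those with an unadjusted p under 0.05 were not counted over all genes. In that fit the group term rested mainly on IncPBF lung 1. Its own log2 difference from the sham mean was -2.48 for Hba-a1 and -1.23 for Slc4a1, beside -2.45 and -1.22 in the fit. Among the IncPBF lungs, those with high Xist included the highest globin level (lung 2) and the lowest (lung 4). Whether sex bore on the globin levels was not tested.

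The other globin genes were at or near 0. Of the 8 other genes of the globin list with a row, Hbb-bh1, Hbb-bh2 and Hbb-bh3 had no fragment in any lung, which allows up to 3 fragments per lung. Hba-x, the embryonic alpha-like globin zeta, had 1 fragment in 1 IncPBF lung. Hbb-y, the embryonic beta-like globin epsilon, had 0, 1, 3, 4 and 0 fragments in the IncPBF lungs and 0, 0, 1, 1 and 1 in the sham lungs. Hbb-bh0 had 1 fragment in 1 lung, Hbq1a at most 2 per lung and Hbq1b at most 5. The hemoglobin RNA measured here was thus of the adult chains.

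Genes of the red cell were taken from 6 further lists that cover heme synthesis, membrane, transcription factors, receptors, cytoplasm and heme clearance. Many of these genes also have uses outside red cells. In heme synthesis, 14 of 15 genes were tested, and 2 fell and 1 rose, beside 16.2% lower and 16.1% higher over all genes tested. Beside Alas2 these were Urod, uroporphyrinogen decarboxylase, which fell by 0.20 on the log2 scale (limma, adjusted p = 0.0470), and Tmem14c, a mitochondrial porphyrin carrier, at +0.20 (limma, adjusted p = 0.0195). Alas1, the form of the first enzyme used by other cells, measured 20.5 ± 1.63 FPKM in IncPBF and 21.2 ± 2.66 in sham (limma, adjusted p = 0.727). Slc25a39, a mitochondrial carrier, had a log2 fold change of 0.13 (limma, adjusted p = 0.278). The median log2 fold change over the tested genes of this list was 0.01, like that of all genes.

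The red cell membrane and skeleton list had 8 genes tested of 21, of which 5 fell and 1 rose. Over all genes tested, 16.2% were called lower and 16.1% higher. The median log2 fold change of the list was -0.71. Tmod1, which caps the pointed ends of actin filaments in the membrane skeleton, fell by 1.19 (limma, adjusted p = 0.000155), from 6.63 ± 1.41 to 2.80 ± 0.276 FPKM. Epb41, a protein of the membrane skeleton, fell by 0.98 (limma, adjusted p = 6.83e-05). Between IncPBF lungs the highest FPKM was 1.24 times the lowest for Tmod1 and 1.41 times for Epb41, against 6.88 times for Hba-a1. Aqp1, a water channel that lung endothelium also makes in quantity, fell by 0.45 (limma, adjusted p = 0.0113), and Gypc, glycophorin C, stood 0.30 higher (limma, adjusted p = 0.00541).

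Another 12 genes of the membrane list had fragments but lay under the filter, and 11 of them had the lower mean in IncPBF, 3 without overlap of the groups. Of all 16012 genes under the filter with a fragment, 0.818% were lower in IncPBF without overlap. How many of those genes had the lower mean in IncPBF was not counted, so the 11 of 12 stand without a comparison. The 5 genes of the cytoplasm list under the filter included 2 without overlap, Car1 and Hemgn, chosen after their values were seen. Car1, the carbonic anhydrase of red cells, had 0, 0, 0, 2 and 0 fragments in IncPBF and 10, 6, 10, 7 and 3 in sham. Hemgn, hemogen, a nuclear protein of blood precursors, had 1, 6, 2, 6 and 7 fragments in IncPBF and 46, 15, 21, 12 and 11 in sham. With counts this low the precision is limited, and with no filter on low values Car1 and Hemgn had adjusted p of 0.0252 and 0.0739 in limma.

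**Figure D4:**
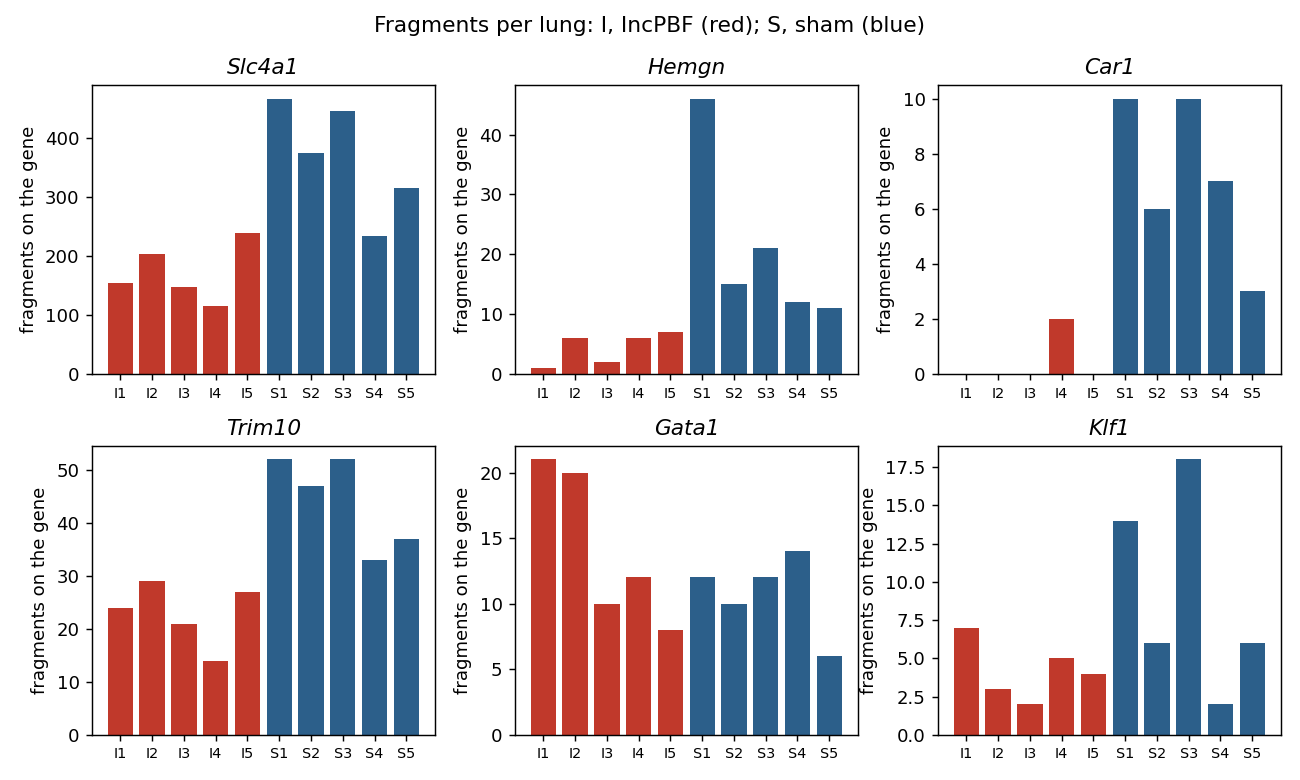
Fragments on Slc4a1 and 5 other red cell genes in each lung (bars from 0; I1 to I5, IncPBF lungs in red; S1 to S5, sham lungs in blue), genes chosen after their values were seen. Hemgn, Car1 and Trim10 show fewer fragments in every IncPBF lung than in any sham lung, and Slc4a1 nearly so. Gata1 and Klf1 show few in either group, at most 21 and 18 per lung. Car2 and Prdx2 of the same list as Hemgn are not shown, and both were higher in every IncPBF lung than in any sham lung.

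Of 9 tested transcription factors of red cell genes, 3 fell and 1 rose, beside 16.2% lower and 16.1% higher over all genes tested. With log2 Xist in the fit, where 741 of all genes tested passed against 4970 without it, 1 fell and 0 rose in limma. In that fit 2 were lower and 0 higher at an unadjusted p under 0.05. Gata2, which acts in early progenitors and in endothelium, fell by 0.92 (limma, adjusted p = 0.000121), from 42.1 ± 7.05 to 22.0 ± 1.51 FPKM. Zfpm1, the partner protein FOG1 of GATA factors, fell by 0.33 (limma, adjusted p = 0.0129), and E2f2 fell by 0.33 (limma, adjusted p = 0.0414; 0.0795 without sham lung 5). Nfe2, a factor of the erythroid and megakaryocyte lines, stood 0.45 higher (limma, adjusted p = 0.0207). Lmo2 and Ldb1, bridging proteins of the erythroid complex, had log2 fold changes of 0.07 each (limma, adjusted p = 0.540 and 0.457). Gata1 and Klf1, the defining factors of red cell precursors, were under the filter, with 6 to 21 and 2 to 18 fragments per lung, and their groups overlapped.

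Among receptors, signalling and iron uptake, 4 of 8 tested genes fell and 0 rose in limma, beside 16.2% lower and 16.1% higher over all genes tested. The counts of the list at an unadjusted p under 0.05 were the same. Kit, the stem cell factor receptor, fell by 0.55 (limma, adjusted p = 0.000188), and Steap3, the ferrireductase of the transferrin cycle, fell by 1.03 (limma, adjusted p = 0.000257). Stat5b and Jak2, which carry the erythropoietin signal among others, fell by 0.46 and 0.18 (limma, adjusted p = 0.00219 and 0.0444). Epor, the erythropoietin receptor, and Tfrc, the transferrin receptor, had log2 fold changes of -0.08 and 0.02 (limma, adjusted p = 0.566 and 0.866).

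Of the 14 tested genes of red cell cytoplasm and late maturation, 4 fell and 2 rose, beside 16.2% and 16.1% of all genes tested. Car2, a carbonic anhydrase also of other lung cells, measured 123 ± 7.84 FPKM in IncPBF and 67.8 ± 7.97 in sham, higher by 0.86 (limma, adjusted p = 4.59e-05). Prdx2, an antioxidant abundant in red cells, was higher by 0.44 (limma, adjusted p = 0.000623). Trim10, a protein of terminal erythroid maturation, fell by 0.88 (limma, adjusted p = 0.00646), from 1.07 ± 0.213 to 0.538 ± 0.119 FPKM. Mkrn1 fell by 0.35 (limma, adjusted p = 0.000652) and Cat, catalase, by 0.20 (limma, adjusted p = 0.0261). Bnip3l, which removes mitochondria from maturing red cells, had a log2 fold change of -0.19 (limma, adjusted p = 0.0781).

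The genes that take up hemoglobin and heme or store iron counted 14 tested, 5 lower and 1 higher in IncPBF. For all genes tested the shares were 16.2% lower and 16.1% higher. Cd163, the macrophage receptor for hemoglobin bound to haptoglobin, measured 0.632 ± 0.163 FPKM in IncPBF and 2.45 ± 1.08 in sham, and fell by 1.73 (limma, adjusted p = 0.000815) without overlap. Fth1, the ferritin heavy chain, fell by 0.46 (limma, adjusted p = 0.000662), Slc48a1, a heme transporter of lysosomes, by 0.32 (limma, adjusted p = 0.00373), and Lrp1, a receptor for heme bound to hemopexin, by 0.53 (limma, adjusted p = 0.00881). Ftl1, the ferritin light chain, and Hp, haptoglobin, had log2 fold changes of 0.05 and 0.42 (limma, adjusted p = 0.686 and 0.548). Hp was 30.7 FPKM in sham lung 5 and 138 to 299 FPKM in the other sham lungs, so its value leaned on that lung. Counts for these 6 lists were lower with log2 Xist in the fit, where 6 genes over all of them passed as lower and 1 as higher. Calls over all genes tested were fewer in that fit as well, at 741 against 4970 without the term. Some calls outside the 6 genes also rested on single lungs. Blvra, biliverdin reductase, which was the 1 higher gene of the clearance list, missed the threshold without any 1 of 9 lungs (limma, adjusted p up to 0.104). Urod and Jak2 each missed it without any 1 of 8 lungs and E2f2 without any 1 of 7 (limma, adjusted p up to 0.108, 0.0965 and 0.0977). Cat missed it without IncPBF lung 1, IncPBF lung 3 or sham lung 4, and Tmem14c without IncPBF lung 4 (limma, adjusted p up to 0.0556 and 0.0522).

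**Figure D5:**
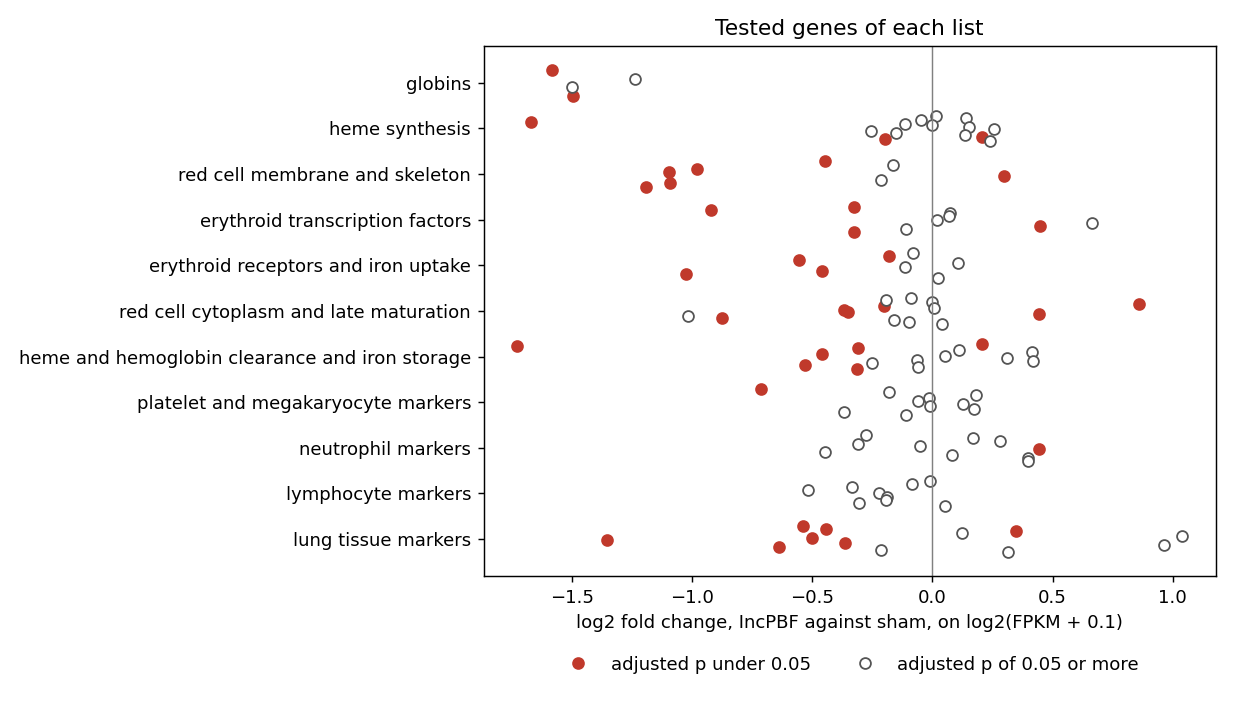
Log2 fold change of IncPBF against sham, on log2(FPKM + 0.1), for each tested gene of the 11 lists (rows), red where the adjusted p was under 0.05 and open otherwise. The globins and the membrane genes lie mostly to the left, at -1.58 to -1.24 for the globins, while heme synthesis beside Alas2 lies within 0.26 of 0 on either side.

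Platelets, neutrophils and lymphocytes, which blood also carries, were followed through their marker genes. Over all genes tested, 16.2% passed as lower and 16.1% as higher. Of 10 platelet and megakaryocyte genes tested, 1 fell, Clec1b (log2 fold change -0.71; limma, adjusted p = 0.00667), and the summed level was 32.0 to 49.2 FPKM in IncPBF and 32.7 to 67.9 in sham. Pf4, platelet factor 4, had a log2 fold change of -0.01 (limma, adjusted p = 0.964). Of 10 neutrophil genes, 1 rose, Mmp9 (0.44; limma, adjusted p = 0.0294), with summed levels of 44.1 to 86.2 FPKM in IncPBF and 35.1 to 73.2 in sham. Mmp9 missed the threshold without any 1 of 5 lungs, among them sham lung 5 (limma, adjusted p = 0.0670 without it), so that 0 neutrophil genes passed in limma without that lung and 2 had an unadjusted p under 0.05, 1 in each direction. Of 9 lymphocyte genes, 0 passed in either direction in limma, 2 had an unadjusted p under 0.05 (lower), and 1 passed as lower in limma-voom or without sham lung 5, with summed levels of 32.6 to 39.6 and 37.5 to 48.2 FPKM. How much blood each lung held was not measured, and the part of blood volume in the globin values was not tested.

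The markers of lung tissue, which check the label of the samples, all passed the filter on low values, 12 of 12, and the airway gene Scgb1a1 was far lower in 1 sham lung. Of these 12, 6 fell and 1 rose, beside 16.2% lower and 16.1% higher over all genes tested. Without sham lung 5, 0 rose in limma and 1 was higher at an unadjusted p under 0.05. Sftpb and Ager of the alveolar epithelium fell by 0.64 and 0.54 (limma, adjusted p = 0.000284 and 0.00157). Scgb1a1, the secretory protein of airway club cells, measured 128 FPKM in sham lung 5 and 4802 to 11743 FPKM in the other 9 lungs. That lung had globins at the low end of the sham group. Without it the difference of the beta sum had an exact permutation p of 0.0476, and that of the alpha sum kept an exact permutation p under 0.05.

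The genes whose pattern over the 10 lungs was most like the globins were sought among all other tested genes, by Pearson correlation of the deviations from the group means with the mean deviation of the 4 globins. The points share library and depth, and the values are descriptive. Of the 6 genes, Alas2 was very close to the globins (r = 0.979, Spearman rho 0.988) and Slc4a1 was not (r = 0.413, rank 1733 of all genes tested). Among the 5 most alike genes outside the 6 were Gm8783, a processed pseudogene with 5 to 11 fragments per lung (r = 0.933), Oxsm (r = 0.920), Cul2 (r = 0.916) and Bpgm, the enzyme that makes 2,3-bisphosphoglycerate in red cells (r = 0.902). The deviations of Bpgm from the group means had an SD of 0.149 on the log2 scale, against 0.775 for Hba-a1, and its group means were 14.9 ± 2.00 and 14.9 ± 1.44 FPKM.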

How the data were processed

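Total RNA of P14 lungs was made into NEBNext Ultra libraries and sequenced on a NovaSeq instrument by the authors. The submitters' processing notes name Bowtie 0.12.2 and several builds without a role, and the counting software is not given in the sources used here. The authors deposited FPKM per gene and the gene length. Dividing FPKM times length by a constant of each lung gave whole fragments for 100% of values (tolerance 0.1 fragment). In the table, names of IncPBF columns differ from the titles in their abbreviation, and age and number tied each to its sample. The table held 0 columns of other samples.

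The fit took the 15388 genes whose FPKM averaged 0.5 or more, on log2(FPKM + 0.1), in limma 3.58.1 (lmFit, eBayes with a trend; R 4.3.3), two-sided, all 10 lungs, no covariate, with Benjamini-Hochberg adjustment. Fold changes on this scale understate those of low genes. Sums and ratios were compared by exact permutation over all 252 assignments of lungs to groups (two-sided, log2 means; scipy 1.17.1). Plots were drawn with matplotlib 3.10.9, and tables handled in pandas 2.3.3 under Python 3.11.15. The 6 genes and all lists were chosen with earlier results of these data known. Named by rule were the 6 genes, Xist, the globins, the 3 highest and up to 4 most significant genes of each list (of which examples are given), and the 5 genes most like the globins. Some genes of the lists and of these 5 are not reported here. Car1, Hemgn, Gata1, Klf1, Epor, Tfrc and Ddx3y were named after their values were seen. Other pseudocounts, filters, scalings, a replicate block, log2 Xist, limma-voom and leaving out each lung were tried.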

Additional observations from a re-analysis of the deposited data

Results flagged for a closer look

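Lungs that stood apart were sought within each surgery group for the 6 genes, their sums, ratios and shares, the other globins and the other genes named by rule or after seeing values. Among these 164 groups of 5 lungs, 16 held a lung whose gap to its nearest neighbour was, as a share of the group's range, over the limit of Dixon's test, which chance passes in about 1 of 20 groups. The alpha to beta globin ratio was 0.911 in sham lung 5, above the other sham lungs at 0.689 to 0.747. Urod was 17.2 FPKM in sham lung 2, Mkrn1 20.5 FPKM in sham lung 4 and Clec1b 3.12 FPKM in sham lung 3. Ftl1 was 401 FPKM in IncPBF lung 3. S100a9 was 14.4 FPKM in sham lung 5, and Cd79a was 14.5 FPKM in sham lung 2. Hbb-bt made up 10.1% of beta globin in IncPBF lung 1 and 9.86% in sham lung 5. Hemgn was 1.02 FPKM in sham lung 1. Xist was 0.0144 FPKM and Ddx3y 18.6 FPKM in IncPBF lung 1. In IncPBF, Car1 (0.0929 FPKM, lung 4), Hba-x (0.0569, lung 2), Hbq1a (0.0960, lung 4) and Hbb-bh0 (0.373, lung 5) had fragments in 1 lung each. The FPKM of the 6 hemoglobin and erythroid genes themselves gave none of these.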

How the results depend on the processing

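All 6 genes stayed lower in IncPBF under every alternative run, and the calls did not. The number of genes past the threshold, 4970, was 3125 with no filter on low values (54532 genes) and 741 with log2 Xist as a covariate, and 3869 to 5234 without 1 lung. With no filter Hba-a1 (-1.58, adjusted p = 0.159), Hbb-bt (-1.50, 0.254) and Alas2 (-1.67, 0.111) lost their limma calls and Slc4a1 kept it (0.0230). With log2 Xist, where the group term rested mainly on IncPBF lung 1, Hba-a1 (-2.45), Hbb-bt (-2.27), Alas2 (-2.43) and Slc4a1 (-1.22) lost theirs. Hbb-bt (-1.50) also lost it without the eBayes trend. Hbb-bs passed with a minimum mean of 1 FPKM (-1.50), quantile normalization (-1.47) and limma-voom on recovered fragments (-1.50), the last chosen after seeing the data. Without 1 lung, fold changes ran from -1.93 to -1.23 for Hba-a1, -1.72 to -0.90 for Hba-a2, -1.91 to -1.13 for Hbb-bs, -1.89 to -1.11 for Hbb-bt, and the beta sum from -1.91 to -1.13. With group medians the beta sum was -2.03 (exact permutation p = 0.0476) and the alpha to beta ratio reversed to 0.058 on the log2 scale (p = 1). The cause of these changes was not tested. Lungs share only a number: deviations of same-numbered lungs correlated at -0.0675 to 0.0854, and 2 of 5 lungs matched their own number best. With the number as replicate block 4872 genes passed, Hba-a2 passed (-1.24, adjusted p = 0.0424) and no other of the 6 changed its call, and paired sign flips gave the alpha sum (-1.57) a p of 0.0625, the smallest they can give. Genes with few fragments per lung, such as Car1, are limited by depth.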
